A study of Mus musculus with 12 samples.

Results

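Macrophages without IRAK1 and IRAK2 (the double knockout) were followed from 2 h to 8 h of stimulation, with 4 h as the intermediate time. The cells were mouse peritoneal macrophages elicited with thioglycollate, and the stimulus was MALP-2 at 100 ng/ml, a lipopeptide that acts through the receptors TLR2 and TLR6. The double-knockout arrays used were 3 of the 12 Affymetrix arrays of the study, 1 each at 2, 4 and 8 h. The other arrays hold wild-type and IRAK2-knockout macrophages at 0, 2, 4 and 8 h of the same stimulus, and the unstimulated double knockout. That last array was left out because it stood apart, its median over expressed genes being 5.18 (log2) against 6.28 to 6.53 on the other 11 arrays. All genotypes shared the thioglycollate elicitation, and IRAK2 was absent from both knockouts. How the alleles were made, the strain and age of the mice, and how many mice gave the cells of an array are not given in the sources used here. The array gave 18194 named genes, and for each the brightest probeset on average over these 11 arrays was used. Of these genes, 12090 were measured, meaning that the 2 h or the 8 h level reached 3.83, the median of all values.

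IRAK1 and IRAK2 are kinases that carry the signal of Toll-like receptors and of the IL-1 receptor from the adaptor MyD88 and the kinase IRAK4 to TRAF6, and from there to NF-kB and the MAP kinases. Many inflammatory messengers induced by this pathway are short-lived, so their level follows the balance of continued transcription and messenger decay. Several targets of NF-kB, such as the I-kappa-B proteins and A20, in turn restrain it.

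The cells carried macrophage transcripts at all 3 times. Csf1r, the receptor for the macrophage growth factor CSF-1, read 13.13, 13.17 and 13.31 (log2) at 2, 4 and 8 h. Cd68, a lysosomal membrane protein of macrophages, read 11.60, 11.48 and 11.61. Of 19 macrophage markers on the array, 18, 15 and 18 reached the floor at 2, 4 and 8 h. The summed level of the list was 15.19, 15.15 and 15.12 on the log2 scale. Of 13 neutrophil markers, 6 were under the floor at all 3 times, among them Elane and Mpo, and the sum of the list was 9.92, 9.89 and 9.93. The summed levels of B cell markers went from 10.47 at 2 h to 10.89 at 8 h and those of dendritic cell markers from 11.97 to 12.32. At 8 h, 4 of 9 B cell markers and 5 of 9 dendritic cell markers reached the floor. Irf8, of the dendritic cell list, read 6.66, 7.56 and 8.02, whereas Pax5, Cd79b, Flt3 and Xcr1 were under the floor. The sum of eosinophil and mast cell markers went from 8.54 to 8.24, and that of 4 sex-linked genes was 10.04, 9.84 and 9.60. The part of such cells, or of the mice used, in the results was not tested. In whole samples, fewer cells of a type and less RNA per cell cannot be told apart. Irak1 was read at 8.25, 8.31 and 8.11 and Irak2 at 5.19, 4.61 and 5.09. The sources used here do not give where their probes lie relative to the deleted parts of the genes, so these levels do not check the labels.

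RNA of the double knockout gave weak signals toward the 5′ end of messengers, and this moved with time. The 5′ minus 3′ probeset difference of Gapdh was -5.29, -5.90 and -4.36 (log2) at 2, 4 and 8 h, whereas the other 8 arrays lay between -3.84 and -3.42. For actin it was -4.25, -4.68 and -3.87, against -3.72 to -3.18. The Pearson correlation across probesets was 0.979 between 2 h and 8 h, the lowest of the 3 pairs of double-knockout arrays, and 0.954 or more between any of the 11 arrays.

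From 2 h to 8 h, 214 of the 12090 measured genes were at least 2-fold lower (1.77%) and 389 were at least 2-fold higher (3.22%) in the double knockout. The median gene differed by 0.11 (log2), and the balance of the counts depended on that shift. With each array centred on its median over expressed genes, 327 genes were lower and 230 higher, so that the lower genes went from 35.5% to 58.7% of both. With 1 array per time there is no replicate check of any difference. A limma fit over the 9 stimulated arrays of all genotypes, with a free time course and a genotype slope on log2 time, therefore served as the test. It called 189 genes lower (1.74% of 10854 tested) and 341 genes higher (3.14%) at a Benjamini-Hochberg adjusted p under 0.05. Its p-values weigh a difference against the departure of the 4 h levels from a shape shared by the genotypes, and not against the spread between mice. These counts depend on the fit, being 35 and 26 with a straight line on log2 time for each genotype and 309 and 487 with a prior variance that follows intensity. Without the wild-type arrays they were 120 and 164. Among the 2-fold genes, 146 of 214 lower and 256 of 389 higher genes were called. In what follows, "fell" and "rose" are kept for genes called in this fit.

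At the threshold itself, the genes just inside and just outside differed by very little. Akap2 went from 7.80 over 7.22 to 6.80, a difference that rounds to -1, and was counted. Vmn1r45 went from 4.40 over 3.51 to 3.40, with a difference that rounds to the same value, and was not.

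The median level of the genes lower at 8 h was 7.63 at 2 h, 6.85 at 4 h and 6.09 at 8 h. The 4 h level lay between the others for 181 of 214 genes (84.6%), and the median gene had covered 0.53 of its difference by then. A wide gap between 2 h and 8 h, by which the genes were chosen, itself favours such a place of the 4 h level. Genes higher at 8 h had medians of 5.06, 5.68 and 6.44 and a 4 h level between the others for 319 of 389 genes (82%). Over 4 h minus 2 h alone, 94 genes were at least 2-fold lower (0.788% of 11934) and 125 higher (1.05%). Over 8 h minus 4 h, 105 genes were lower (0.873% of 12022) and 209 higher (1.74%).

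**Figure D1:**
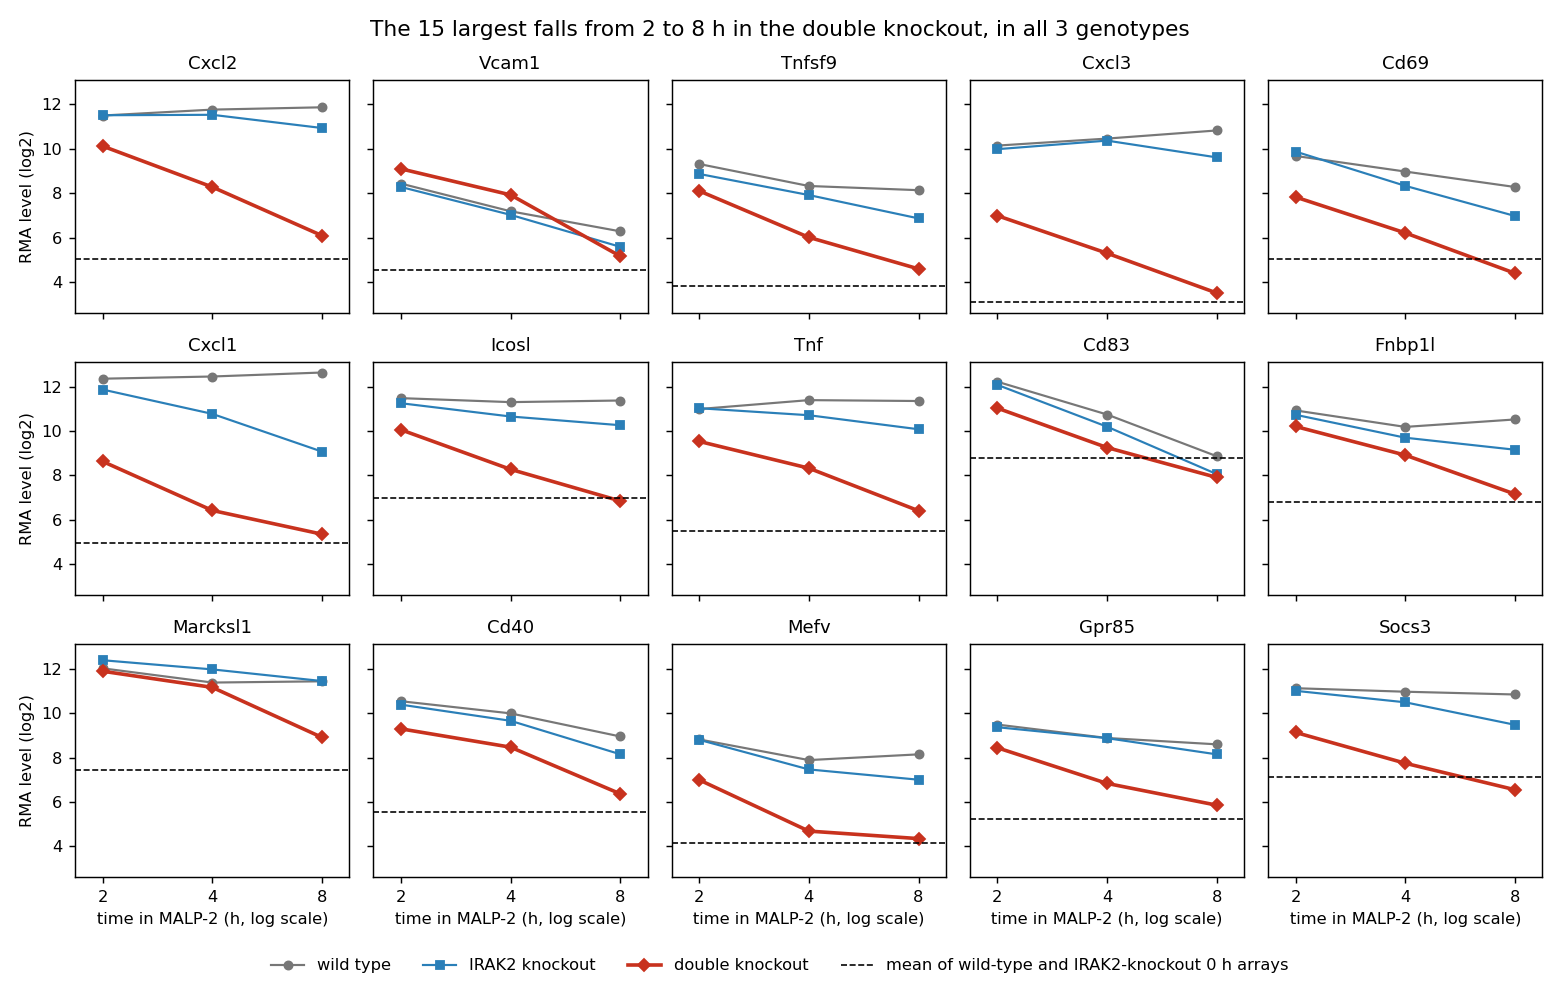
RMA level (log2, vertical) at 2, 4 and 8 h of MALP-2 (horizontal, log scale) for the 15 genes with the largest falls in the double knockout, 1 array per point. Red diamonds are the double knockout, blue squares the IRAK2 knockout, grey circles wild type, and the dashed line is the average of the other genotypes' 0 h arrays; the red line ends within 2-fold of the dashed line in 13 of 15 panels.

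The 15 largest falls, among genes with a 4 h level between the others, were mostly of cytokine, chemokine and surface activation genes. They ranged from -4.04 to -2.58 (log2), with adjusted p from 0.00164 to 0.0205 in the limma fit and standard errors of 0.17 to 0.39. If the level declined evenly on the log scale, they correspond to a net halving every 1.49 to 2.32 h. Transcription was not blocked in these cultures, so such a time is that of the net level and no half-life of the messenger. All 15 genes stood at least 2-fold above the unstimulated arrays of the other genotypes at 2 h, by 2.00 to 5.09 (log2). By 8 h, 13 of them were within 2-fold of those arrays.

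The neutrophil-attracting chemokines Cxcl1, Cxcl2 and Cxcl3, ligands of the receptor CXCR2, were all among these 15, and Cxcl2 had the largest fall. Cxcl2 read 10.12 at 2 h, 8.28 at 4 h and 6.08 at 8 h, and fell by 4.04 (log2; SE 0.19). Unstimulated wild-type and IRAK2-knockout cells averaged 5.03, so the level was 5.09 above them at 2 h and 1.05 above them at 8 h. In wild-type cells Cxcl2 was 11.50, 11.77 and 11.87. Cxcl3 read 6.99, 5.29 and 3.50, and so fell by 3.49 (SE 0.27) to a value under the floor, which makes the size a lower limit. Cxcl1 read 8.63, 6.42 and 5.35, and fell by 3.28 (SE 0.32). The other probesets of Cxcl1 gave -3.52 and -3.58. In wild-type cells all 3 were higher at 8 h than at 2 h, by 0.28 to 0.68.

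These 3 genes lie close together on chromosome 5, and their promoters share a site that few other promoters hold. The 150 bases before the RefSeq start of each gene are printed below 5′ to 3′ on the plus strand (GRCm38.p6), at chr5:90891095-90891244 for Cxcl1, chr5:90903749-90903898 for Cxcl2 and chr5:90785951-90786100 for Cxcl3. They are shown because these genes declined together, and the capitals mark GGGAATTTCCC, the longest run of bases that all 3 windows share, which has the form of an NF-kB site.
Cxcl1: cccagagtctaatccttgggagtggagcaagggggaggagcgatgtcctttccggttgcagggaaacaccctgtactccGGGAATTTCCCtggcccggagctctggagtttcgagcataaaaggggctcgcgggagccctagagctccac
Cxcl2: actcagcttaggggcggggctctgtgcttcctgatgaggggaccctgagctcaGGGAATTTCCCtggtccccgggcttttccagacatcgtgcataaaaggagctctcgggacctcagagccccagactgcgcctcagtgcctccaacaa
Cxcl3: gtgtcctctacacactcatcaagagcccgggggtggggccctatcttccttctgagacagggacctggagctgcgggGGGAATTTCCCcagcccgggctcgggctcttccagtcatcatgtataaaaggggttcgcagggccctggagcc
The site begins 71, 97 and 73 bases before the start of Cxcl1, Cxcl2 and Cxcl3. It was then searched on both strands from 250 bases before to 50 bases after the start, and was present at 3 of 170 lower genes with a RefSeq promoter (1.76%), which are the genes it was taken from. It was present at 0 of 314 higher genes, at 7 of 9797 measured genes (0.0715%) and at 14 of 27025 genes in the table (0.0518%). TGANTCA, the AP-1 form, was present at 8.24% of lower, 7.96% of higher and 6.32% of measured genes. A match is a description of the sequence and not evidence of binding.

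Other chemokines moved less. Of 20 measured chemokines, 5 were at least 2-fold lower at 8 h (1.77% of all measured genes were) and none higher. The fit called 4 lower (1.74% of all tested genes were). The list median was -0.41 against 0.11 for all measured genes. Cxcl10, an attractant of T cells, read 5.16, 4.30 and 3.92 and fell by 1.24. Ccl3, an attractant of monocytes, read 8.57, 7.96 and 7.38, a difference of -1.19 with an adjusted p of 0.0523. Ccl9 stayed at 11.82, 11.94 and 11.40 and Ccl6 at 10.35, 10.30 and 9.99.

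Tumour necrosis factor and a relative of it led the cytokines. Tnf read 9.53, 8.32 and 6.40 and fell by 3.13 (SE 0.18), from 4.06 to 0.93 above the unstimulated arrays. In wild-type cells it read 10.99, 11.39 and 11.35. Tnfsf9, the ligand of the costimulatory receptor 4-1BB, read 8.10, 6.01 and 4.58 and fell by 3.52 (SE 0.23). Il1b, the precursor of interleukin 1 beta, read 6.16, 3.79 and 4.09. Its difference of -2.06 was not called (SE 0.69, adjusted p 0.124), and its 4 h level was under the floor. Il6 was near the floor throughout, at 3.93, 3.60 and 3.63. Of 17 measured cytokines, 4 were at least 2-fold lower (1.77% of all measured genes were) and none higher. The fit called 2 lower (1.74% of all tested genes were), and the list median was -0.30.

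Surface molecules of adhesion and T-cell costimulation made up a further share of the steepest falls. Vcam1, an adhesion molecule that binds the integrin VLA-4, read 9.10, 7.92 and 5.16, a fall of 3.94 (SE 0.36). At 2 h it stood 0.67 above wild type, alone among the 15. Icosl, the ligand of the T-cell receptor ICOS, read 10.06, 8.27 and 6.84 and fell by 3.21 (SE 0.17), ending 0.13 under the unstimulated arrays. Cd40, the receptor for CD40 ligand, read 9.29, 8.47 and 6.36 and fell by 2.93 (SE 0.21). Its other probesets gave -2.54 and, for the dim one without a suffix for shared sequence, -0.96. Cd83 read 11.03, 9.25 and 7.91 and fell by 3.12 (SE 0.22). Cd69, an early activation marker of leukocytes, read 7.83, 6.21 and 4.39 and fell by 3.44 (SE 0.18). By 8 h each of these 5 was within 2-fold of the unstimulated arrays. Icosl and Cd40 belong to the list of antigen presentation and costimulation, which had a median of 0.07 over 20 measured members. In that list 2 were called lower and 3 higher (1.74% and 3.14% of all tested genes were). H2-DMa, a chaperone of MHC class II peptide loading, rose by 1.19, from 5.84 over 6.05 to 7.03.

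Members of the NF-kB family and its feedback inhibitors were lower at 8 h or within 2-fold. Of 22 measured members of the NF-kB list, 8 were at least 2-fold lower (1.77% of all measured genes were) and none higher, 8 were called lower (1.74% of all tested genes were), and the median was -0.82. Nfkbiz, an atypical I-kappa-B protein needed for some secondary-response genes, read 9.99, 8.93 and 7.84 and fell by 2.15. Nfkbie, which holds NF-kB in the cytoplasm, read 10.58, 9.74 and 8.58 and fell by 2.00, but was still 2.70 above the unstimulated arrays at 8 h. Tnfaip3, the ubiquitin-editing enzyme A20, read 9.25, 8.73 and 8.34 and fell by 0.90. Rel, Nfkbib, Nfkbid and Tnip1 fell by 1.04 to 1.14, and Bcl3 was lower by 1.07 and not called (adjusted p 0.129). The 8 h level of Nfkbia, the main I-kappa-B, was 11.67 after 12.50 and 12.34, a difference of -0.83 that was not called (adjusted p 0.0687). Socs3, an inhibitor of cytokine receptor signalling, read 9.13, 7.74 and 6.55 on its brightest probeset, a fall of 2.58. A further probeset of Socs3 gave -2.55, and the only one without a suffix for shared sequence, near the floor at 4.2 and 4.3, gave 0.09. Ikbkg, the regulatory subunit of the I-kappa-B kinase, was 9.18, 9.60 and 9.95, the member with the largest difference upward, and was not called.

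Genes of some Toll-like receptors and of Cd14 fell as well, among them Tlr2, through which MALP-2 acts. Tlr2, the receptor subunit that binds lipopeptides, read 10.86, 10.46 and 9.73 and fell by 1.12. Tlr1, a partner of TLR2, read 9.99, 9.84 and 8.82 and fell by 1.17. Cd14, a co-receptor, read 10.15, 9.24 and 8.10 and fell by 2.05. Tlr7, a sensor of single-stranded RNA, read 8.14, 6.81 and 5.75 and fell by 2.39. Further probesets of Tlr7 gave -2.45 and -0.89. The partner of TLR2 in sensing MALP-2, Tlr6, read 8.47, 8.42 and 7.71 and was within 2-fold. Of 24 measured genes of the pathway, Tlr1, Tlr2, Tlr7 and Cd14 were the 2-fold lower ones (1.77% of all measured genes were). All 4 were called (1.74% of all tested genes were called lower), and none was 2-fold higher. The list median was -0.13.

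Among further genes, Nlrp3, an inflammasome sensor, read 9.74, 8.57 and 7.37 and fell by 2.38. Mefv, which encodes pyrin, read 7.0, 4.68 and 4.34 and fell by 2.65, most of it by 4 h. Casp4 (caspase 11) read 8.58, 7.86 and 6.59 and fell by 1.99. Irf1, a transcription factor of interferon responses, read 9.69, 8.80 and 7.71 and fell by 1.98. Among cell cycle genes, the proliferation antigen Mki67 read 8.61, 7.01 and 6.90 and fell by 1.71, and the inhibitor Cdkn1a (p21) read 9.90, 8.41 and 7.87 and fell by 2.02. The cell cycle list as a whole had a median of -0.03 over 30 measured genes. Of the remaining largest falls, Fnbp1l fell by 3.05, Marcksl1 by 2.98 and Gpr85 by 2.59. Marcksl1 was read by 4 probesets that gave -3.19 to -1.22.

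Not every induced gene came down to the unstimulated level. Acod1, the enzyme that makes itaconate, was 12.21, 12.02 and 11.73 (8 h minus 2 h -0.48, not called), against 7.16 in the unstimulated arrays. Clec4e (Mincle), a receptor for mycobacterial glycolipid, was 12.21, 12.54 and 12.17, against 7.83 unstimulated. Acod1 was 12.17 to 12.28 on the 6 stimulated arrays of the other genotypes, and whether its probeset is saturated there was not tested. Olr1, a receptor for oxidized LDL, fell by 1.45 from 11.39 yet remained 2.89 above the unstimulated arrays. Cxcr4 was no induced gene by this measure, at 11.66, 12.17 and 11.73 against 11.60 in the unstimulated arrays. Hal was 8.95, 7.78 and 8.57, against 4.14 unstimulated and 3.47 to 3.87 in the stimulated arrays of the other genotypes. Without the unstimulated double knockout, induction of Hal cannot be told from a lasting difference between genotypes.

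Most lower genes had been above unstimulated cells at 2 h, and many higher genes below them. Because the unstimulated double knockout was left out, the baseline was the average of the unstimulated arrays of the other genotypes, and any lasting difference between genotypes or arrays enters a value against it. At 2 h, 498 of 11810 genes were at least 2-fold above this baseline (4.22%) and 707 below it (5.99%). At 8 h the counts were 397 above (3.42% of 11595) and 365 below (3.15%). Of the 214 lower genes, 129 (60.3%) were at least 2-fold above it at 2 h, and 105 of these were within 2-fold of it at 8 h. Among the 24 that stayed above were Cxcl2, Nfkbie, Tlr2, Olr1 and Mmp13. Another 80 lower genes started within 2-fold of the baseline, and 23 of them ended at least 2-fold below it, for example the thrombospondin gene Thbs1 and the complement gene C1qc. Of the 389 higher genes, 180 (46.3%) were at least 2-fold below the baseline at 2 h, and 166 of these were within 2-fold of it at 8 h. A further 204 started within 2-fold, and 46 of them ended at least 2-fold above. Since the 2 h array enters both the difference over time and the difference from the baseline, noise in it moves the 2 together.

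**Figure D2:**
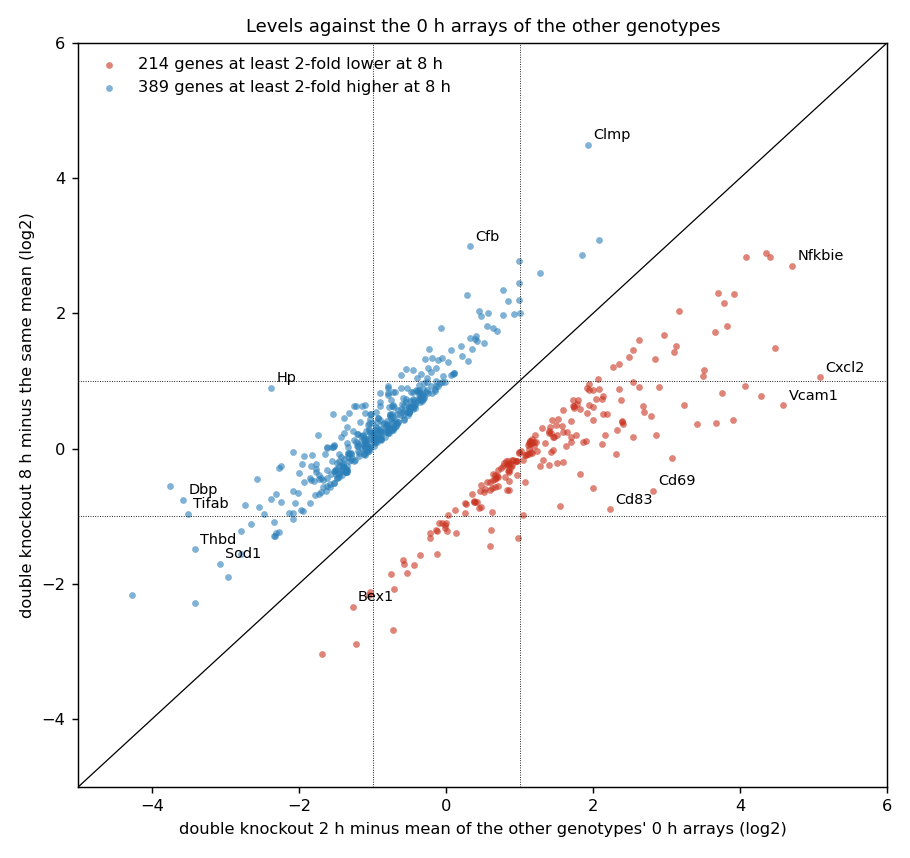
Each point is a gene, with the double-knockout 2 h level (horizontal) and 8 h level (vertical) given as log2 differences from the average of the other genotypes' 0 h arrays; red marks the 214 lower genes, blue the 389 higher genes, dotted lines 2-fold and the solid line equality. The gap to the solid line is fixed by the choice of genes, and 129 red points lie right of the right dotted line while 180 blue points lie left of the left one.

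The 15 largest rises, among genes with a 4 h level between the others, ranged from 1.85 to 3.27 (log2). Dusp7, Atp5g2 and Idh2, lowest at 4 h and not called, had differences of 2.13, 2.11 and 1.95 and were left out by that choice. In the limma fit the adjusted p of the 15 was 0.00167 to 0.0468. Of these genes, 11 were at least 2-fold below the unstimulated arrays of the other genotypes at 2 h. The largest was that of Hp, the haemoglobin-binding protein haptoglobin, which read 3.93, 5.86 and 7.21 and rose by 3.27 (SE 0.19), from 2.38 under to 0.90 above the baseline. Cfb, complement factor B, read 4.11, 5.49 and 6.78 and rose by 2.67 (SE 0.21), and was 2.99 above the baseline at 8 h. Outside these 15, Mmp9, a gelatinase, read 6.43, 6.99 and 7.87 and rose by 1.45. Ptges, the inducible prostaglandin E synthase, read 6.93, 7.86 and 8.25 and rose by 1.32. Hp, Cfb, Mmp9 and Ptges were also at least 2-fold higher at 8 h in both other genotypes, by up to 3.40 for Cfb in wild type.

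**Figure D3:**
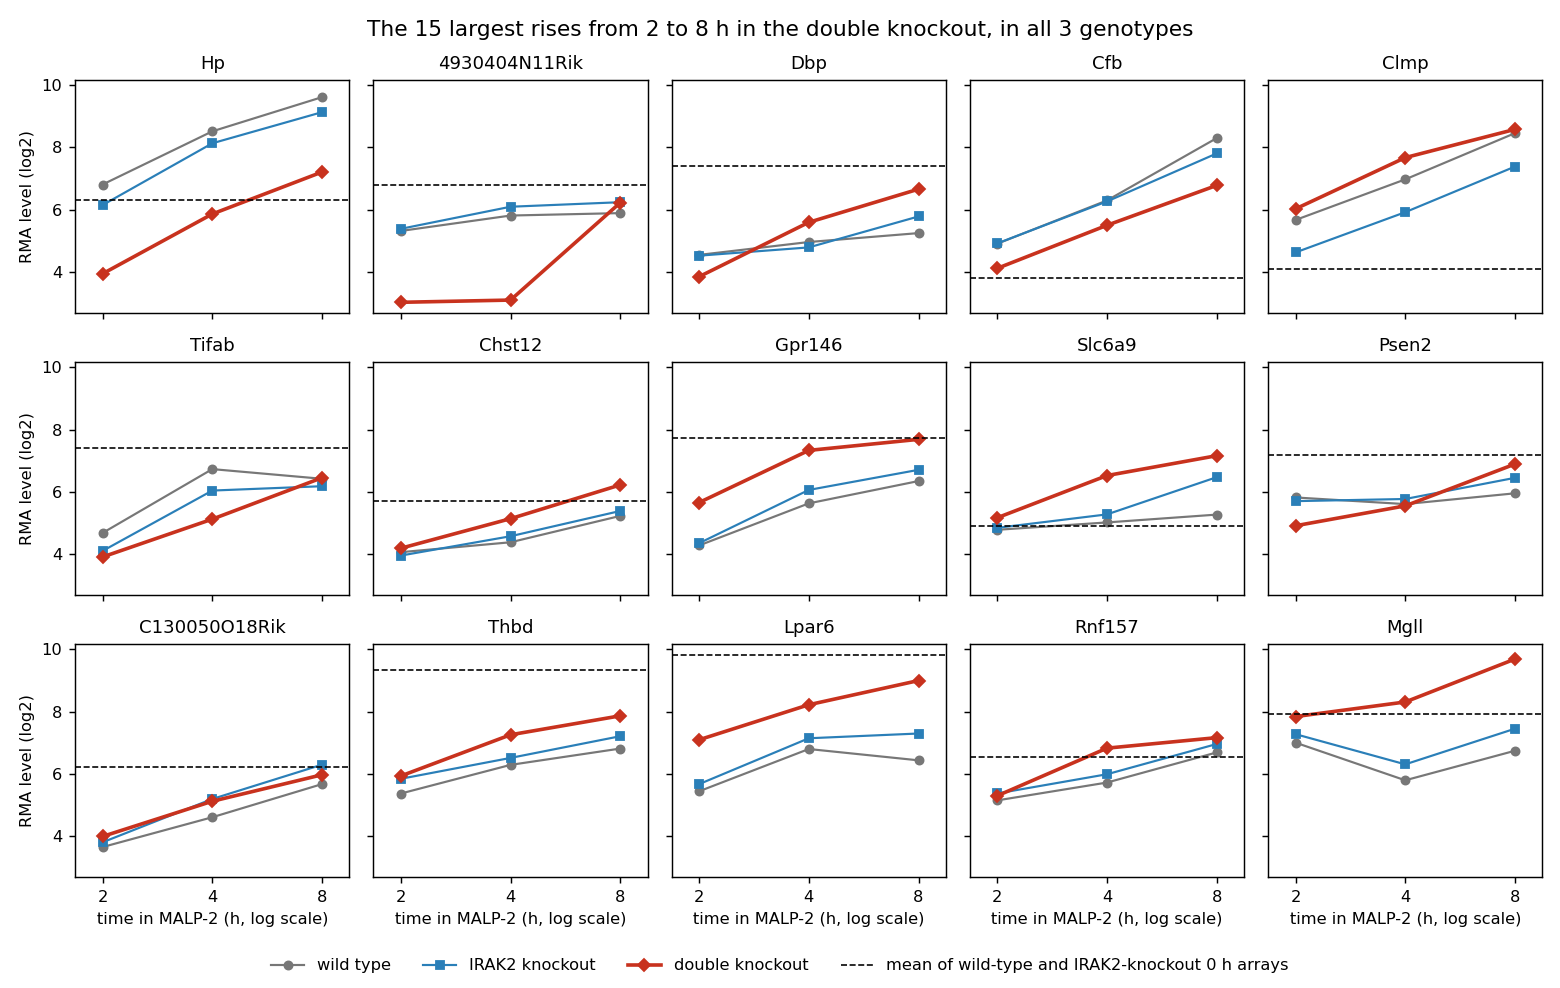
RMA level (log2, vertical) at 2, 4 and 8 h of MALP-2 (horizontal, log scale) for 15 genes, 1 array per point. They had the largest rises in the double knockout among genes with a 4 h level between the others. Colours and dashed baseline are as in the plot of falls. In 11 of 15 panels the red line starts at least 2-fold under the dashed line, and 4930404N11Rik is the gene whose 4 h level stayed at its 2 h level.

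The other largest rises were of genes with varied roles. Dbp, a clock-controlled transcription factor, read 3.84, 5.59 and 6.66 and rose by 2.82 (SE 0.28), still 0.76 under the baseline at 8 h. Its other probeset, below the floor at each time, gave 0.52. Clmp, an adhesion molecule, read 6.02, 7.67 and 8.58 and rose by 2.56 (SE 0.24), ending 4.49 above the baseline. Thbd, the anticoagulant receptor thrombomodulin, read 5.93, 7.26 and 7.87 and rose by 1.94. The lysophosphatidic acid receptor gene Lpar6 read 7.10, 8.22 and 9.0 and rose by 1.91. Both were among the genes that MALP-2 lowers in wild-type cells, and both were still under the baseline at 8 h. Mgll, which hydrolyses monoacylglycerols, read 7.84, 8.31 and 9.69 and rose by 1.85, whereas its difference in wild type was -0.26. Gpr146, Slc6a9, Psen2, Chst12, Rnf157 and C130050O18Rik rose by 1.87 to 2.04, and Tifab by 2.55. Further, dimmer probesets of Gpr146 gave 1.05, 0.03 and -1.04. The rise of 3.21 at 4930404N11Rik lay between 4 h and 8 h (3.02, 3.09 and 6.22), and its other probesets gave 0.07 and 0.17.

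Interferon-stimulated genes were highest at 4 h in part. Ifit1, which binds foreign 5′ ends of RNA, read 5.07, 7.74 and 6.51. Ifit2, of the same family, read 4.12, 6.39 and 5.36, and Rsad2 (viperin) read 8.18, 9.57 and 9.29. None of these 3 was called between 2 h and 8 h (adjusted p 0.134, 0.196 and 0.059), and in each the 4 h level was the highest. Oasl2 climbed throughout, at 5.43, 6.35 and 6.70, and rose by 1.27. Of 24 measured members, 4 were at least 2-fold higher and 1, Irf1, lower (3.22% and 1.77% of all measured genes were). The fit called 2 higher (3.14% of all tested genes were). The list median was 0.53 from 2 h to 4 h and -0.11 from 4 h to 8 h.

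Some lipid synthesis genes rose. Mvd and Mvk, enzymes of the mevalonate pathway, rose by 1.58 (6.33, 7.59 and 7.91) and by 1.24 (4.29, 5.12 and 5.53). Lss, lanosterol synthase, was 6.53, 7.24 and 7.73 and was not called. Of 19 measured cholesterol synthesis genes, 3 were at least 2-fold higher (3.22% of all measured genes were) and none lower, 2 were called (3.14% of all tested genes were), and the median was 0.40 against 0.11 for all genes. Scd2, a stearoyl-CoA desaturase, read 8.45, 9.37 and 9.98 and rose by 1.53. The glycolysis regulators Pfkfb3 and Pfkfb4 rose by 1.27 and 1.25, and the transcription factor Irf8 by 1.36 (6.66, 7.56 and 8.02). Of 20 growth-arrest genes that MALP-2 lowers in wild-type cells, 4 were at least 2-fold higher and 2 lower. Of all measured genes, 3.22% were higher and 1.77% lower. In that list 4 genes were called higher (3.14% of all tested genes were). They are Thbd, Lpar6, Trp53inp1 and Tsc22d3.

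**Figure D4:**
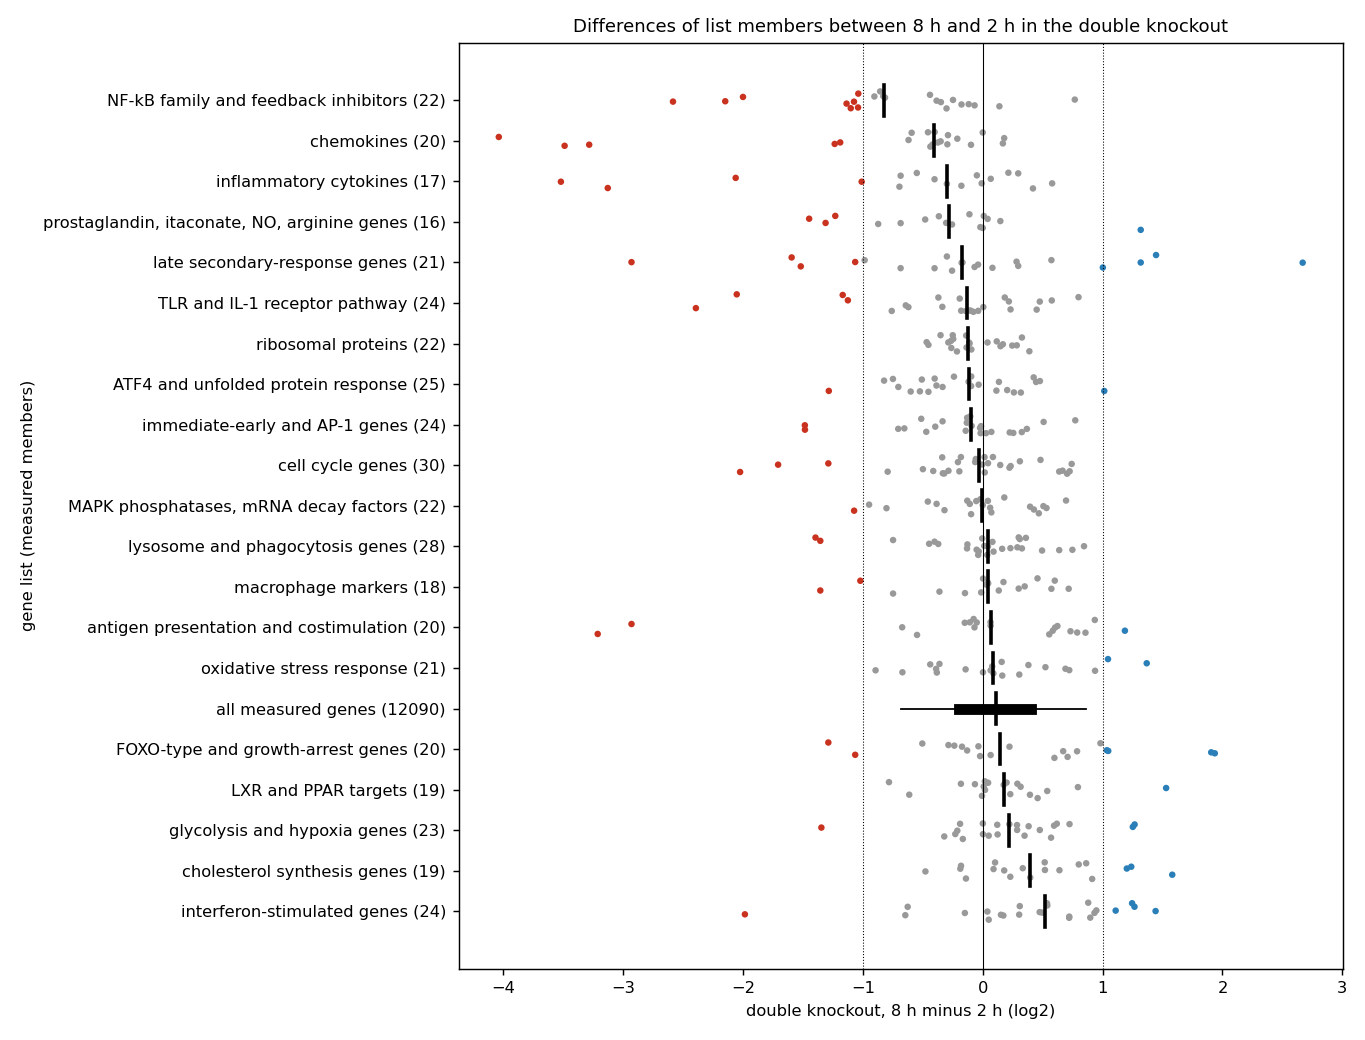
Differences between 8 h and 2 h in the double knockout (log2, horizontal) for the measured members of each gene list with at least 15 of them, ordered by median (black bar); red and blue points are at least 2-fold lower and higher, and the row of all measured genes gives the middle 50% (thick) and 90% (thin). The NF-kB list has the lowest median, -0.82, and the interferon-stimulated list the highest, 0.52.

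Several further lists had medians near that of all genes or were split. Ribosomal protein genes had a median of -0.12 with none of 22 beyond 2-fold. They had stood 1.03 under the baseline at 2 h and were 1.05 under it at 8 h. Macrophage markers had a median of 0.04, with Fcgr1 and C1qc, an Fc receptor and a complement subunit, falling by 1.35 and 1.02. Immediate-early genes had a median of -0.10, with Maff and Nr4a3 each lower by 1.48 and called. Genes of the late secondary response were split, 4 of 21 measured members being at least 2-fold lower (Cd40, Ptx3, Serpinb2 and Mmp13) and 4 higher (Cfb, Ptges, Slpi and Mmp9). Of all measured genes, 1.77% were lower and 3.22% higher. The median of the late secondary list was -0.17 in the double knockout and 0.85 in wild type. The lists were chosen with results of these data known, so their direction is no independent evidence.

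A share of the higher genes followed the order of the 5′ signal. In 48 of 389 higher genes (12.3%) the 4 h level was the lowest, the order in which the 5′ probeset of Gapdh read 5.86, 5.29 and 6.95. The 5′ probeset of actin read 5.97, 5.43 and 5.99, so its 8 h level was close to its 2 h level. Among all measured genes, of either direction, 32.6% had a 4 h level beyond the 2 h level on the side away from 8 h. Choosing genes by a wide gap between 2 h and 8 h itself lowers this share, which was 6.07% among the 214 lower genes. Whether the 48 genes are an excess therefore cannot be told from it. Sod1, superoxide dismutase 1, was 9.33, 8.90 and 10.70, against 11.88 to 12.20 in the stimulated arrays of the other genotypes. Another bright probeset of Sod1 read 10.38, 10.18 and 10.78, again lowest at 4 h but with a difference of 0.40. A dimmer one read 5.21, 6.48 and 6.53, lowest at 2 h. Dusp7 was 4.44, 4.21 and 6.56. Of the 48, 36 were at least 2-fold below the baseline at 2 h, and their median difference was 0.24 in wild-type cells and 0.16 in IRAK2-knockout cells. For the 319 genes with a 4 h level between the others, those medians were 0.67 and 0.75. In the other direction, 13 lower genes were highest at 4 h, among them Snrpd3 (10.17, 10.58 and 8.13), Sub1 and Pfdn1. The part of RNA quality in these differences was not tested.

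Of 16 measured genes of prostaglandin, itaconate, nitric oxide and arginine metabolism, 3 were at least 2-fold lower and 1, Ptges, higher. Of all measured genes, 1.77% were lower and 3.22% higher. Arg2, the mitochondrial arginase, fell by 1.45, and Hpgd, which inactivates prostaglandins, fell by 1.31. Ptgs2, the inducible cyclooxygenase that acts before Ptges, was 6.95, 6.04 and 5.72 and was not called (adjusted p 0.108). Among 22 messenger decay factors and MAP kinase phosphatases, Zfp36 (tristetraprolin), which destabilizes AU-rich messengers such as Tnf, fell by 0.95, and the phosphatase Dusp16 was lower by 1.07 (adjusted p 0.052). In the oxidative stress list, Gclm, a subunit of the enzyme that limits glutathione synthesis, rose by 1.04 and the haem-degrading enzyme Hmox1 by 0.94. In the unfolded protein response list, Herpud1 fell by 1.28, and the list median was -0.12 over 25 measured genes.

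Few genes had a 4 h level beyond both other times by at least 2-fold, 8 above and 7 below. Rbm45, an RNA-binding protein, peaked at 10.12 between 7.88 and 8.27. Its levels in the other genotypes were 9.74 to 10.51 in the stimulated arrays. Clic5 peaked at 6.15 between 4.70 and 4.76. Among the troughs, Rab11fip1 read 5.43, 3.81 and 5.47 and Fry read 10.72, 8.79 and 10.02. Fry was lowest at 4 h in the other genotypes too, at 6.95 in wild type and 6.63 without IRAK2.

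Wild-type and IRAK2-knockout cells also differed between 2 h and 8 h, on arrays of their own. From 2 h to 8 h, 311 of 11215 genes were at least 2-fold lower (2.77%) and 475 higher (4.24%) in wild type. In the IRAK2 knockout, 346 of 11431 were lower (3.03%) and 379 higher (3.32%). Of the lower genes of the double knockout measured in both, 76 were also 2-fold lower in wild type (38.6% of 197, and 24.9% of the 305 of wild type). With the IRAK2 knockout, 113 were shared (56.8% of 199, and 33.3% of 339). Of the higher genes, 123 were shared with wild type (32.2% of 382 and 26.3% of 467) and 129 with the IRAK2 knockout (34% of 379 and 34.4% of 375). Over the 214 lower genes the median difference was -1.21 in the double knockout, -1.07 in the IRAK2 knockout and -0.69 in wild type. Across measured genes the correlation of the 8 h minus 2 h differences was 0.461 with wild type and 0.521 with the IRAK2 knockout. These describe single arrays, and genes are not independent replicates.

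**Figure D5:**
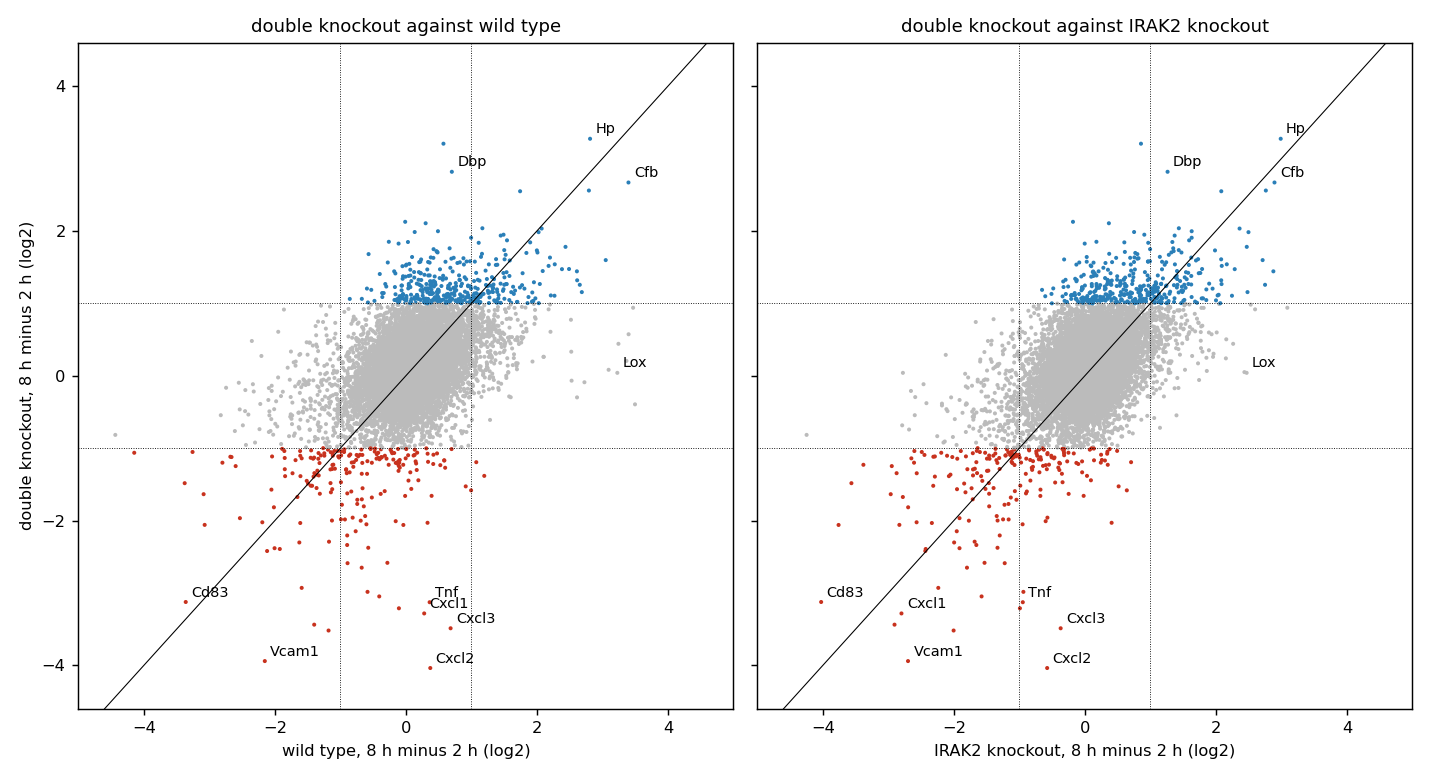
Differences between 8 h and 2 h (log2) in the double knockout (vertical) against wild type (left) and the IRAK2 knockout (right), 1 point per gene measured in both; dotted lines mark 2-fold, the solid line equal differences, and colours the genes at least 2-fold lower (red) or higher (blue) in the double knockout. In the left panel Cd83 lies near the solid line (-3.12 against -3.36), whereas Cxcl2 and Cxcl3 lie far below it in both panels.

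Some of the falls had a counterpart in wild type and others did not. Cd83 differed by -3.12 in the double knockout, -4.03 in the IRAK2 knockout and -3.36 in wild type. Nr4a3 differed by -1.48, -3.56 and -3.38 in the same order. By contrast, Cxcl1 fell in the double knockout and was lower by 2.80 in the IRAK2 knockout, but differed by 0.28 in wild type. Its difference from wild type was not called (adjusted p 0.0621). Testing the difference between genotypes itself in the limma fit, 12 genes were called more negative in the double knockout than in wild type (0.111% of 10854) and 3 more positive (0.0276%). Those counts were 1 and 0 with the straight line, 72 and 60 with the intensity trend, and 27 and 18 without the IRAK2-knockout arrays. Against the IRAK2 knockout, 1 gene was called more negative (0.00921%) and 0 more positive (0.0%), with 1414 genes at an unadjusted p under 0.05 in that contrast. Cxcl2 was the gene called against both, its difference from wild type being -4.41 (SE 0.26, adjusted p 0.00954) and from the IRAK2 knockout -3.46 (SE 0.26, adjusted p 0.0475). Of the largest falls, Cxcl3, Tnf and Icosl were also called against wild type, by -4.17, -3.49 and -3.10. In the double knockout, Lox, the collagen cross-linking enzyme lysyl oxidase, read 7.20, 7.59 and 7.24 while it went from 7.86 to 11.08 in wild type. Wfdc21 stayed under the floor while it went from 4.13 to 8.20 in wild type, and Il6 went from 6.36 to 8.97 there.

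Other probesets of the same genes mostly had the same sign at smaller size. Of 176 further measured probesets of 101 lower genes, 146 were lower (83%) and 56 at least 2-fold (31.8%), with a median of -0.70. Of 250 further probesets of 174 higher genes, 209 were higher (83.6%) and 50 at least 2-fold (20%), with a median of 0.48.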

How the data were processed

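The authors' deposited table holds log2 values, made with RMA per the submitters' processing notes, for 45101 probesets on 12 arrays. As usually run, RMA makes the arrays' distributions alike, so changes are relative to other genes. Of the probesets, 34958 carry 1 gene symbol, 932 several and 9211 none, and symbols were updated by gene ID for 34754. A gene was called at least 2-fold apart when the log2 values differed by 1 or more, with no test.

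The trend fit used limma 3.58.1 in R 4.3.3 on 9 arrays, with genotype, time as a factor and slopes on log2 time for wild type and IRAK2 knockout. It had 7 coefficients and 2 residual degrees of freedom (prior 4.82) and was applied to genes whose mean reached the floor. Standard errors are those of the fit.

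Named genes were Irak1 and Irak2, the 15 largest falls and 15 largest rises with a 4 h level between the others, the 5 largest peaks and troughs at 4 h, 2-fold members of the gene lists, up to 10 genes per direction called against another genotype, and 6 references (Acod1, Clec4e, Nfkbie, Hal, Chil1 and Cxcr4). Further genes named as examples, such as Nlrp3, Casp4, Olr1, Thbs1, Ikbkg, Tlr6, Ccl6, Ccl9, Csf1r, Cd68, Snrpd3 and Dusp7, were chosen after their values were seen. The members and lists were chosen with earlier results of these data known. The labels give no batch.

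Promoters are those of RefSeq, GRCm38.p6, matched by symbol. Alternatives were other probeset rules, floors, array centring, other fits, leaving out a genotype, and 4 h in place of 2 h or 8 h.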

Additional observations from a re-analysis of the deposited data

Results flagged for a closer look

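In the limma fit, 15 genes had a difference between 8 h and 2 h in the double knockout that was called different from that in wild type, and 1 of them also from that in the IRAK2 knockout. The adjusted p of each over the 7 alternative fits is given as a range. Cxcl2 differed by -4.41 (log2) from wild type (5.87e-05 to 0.0288) and by -3.46 from the IRAK2 knockout (0.000466 to 0.155, called in 5 of 7). Cxcl3 differed by -4.17 (0.000818 to 0.0573), Tnf by -3.49 (0.000223 to 0.0573) and Icosl by -3.1 (0.000223 to 0.0755). In these 4 genes the double knockout fell while wild type stayed within 2-fold of its 2 h level.

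In another 6 genes the double knockout stayed within 2-fold while wild type was at least 2-fold higher at 8 h. These were Wfdc21 (-3.98; 0.0016 to 0.0867), Lox (-3.19; 0.000874 to 0.0867), Ripor2 (-3.01; 0.00518 to 0.453), Il6 (-2.91; 0.0107 to 0.0844), Plpp1 (-2.8; 0.00674 to 0.288) and Cp (-2.6; 0.00827 to 0.115). Lmo4 and Rasgrp1 fell in the double knockout and were higher at 8 h in wild type, a difference of -2.58 in each (0.00827 to 0.0867 and 0.00753 to 0.192). Lmo4 read 6.89, 6.11 and 5.51 in the double knockout and 7.94, 8.28 and 9.13 in wild type.

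More positive than wild type were Phxr4 by 2.83 (0.00653 to 0.329), Nfatc2 by 2.78 (0.00681 to 0.234) and Ndrg1 by 2.58 (0.0104 to 0.817). Ndrg1, a stress-induced gene, stayed at 7.53, 7.24 and 7.36 in the double knockout and went from 8.66 to 5.92 in wild type.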

How the results depend on the processing

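No paired analysis was possible because each genotype and time has 1 array. Of 110 named differences, 104 kept their direction and their side of 2-fold with centred arrays, 109 with probesets chosen from all 12 arrays, 88 with the mean of all probesets and 103 (of 109 that could be computed) without probesets ending in _x_at or _s_at. In that last setting Socs3 was 0.092 and Adm 0.43, the reverse of their sign, and Cd40, Dbp, Nfkbib and Mvd were under 2-fold. With the mean of all probesets, 133 genes were lower and 193 higher, of which 43 and 51 were shared with wild type and 75 and 59 with the IRAK2 knockout, and 94 higher genes began below the baseline. The trend fit then called 206 higher, and 6 and 1 genes different from wild type. With centred arrays, 327 were lower and 230 higher, of which 115 and 70 were shared with wild type, 79 higher ones with the IRAK2 knockout, 112 higher genes began below the baseline, and the trend fit called 174 higher. As alternatives chosen after seeing the data, 4 h in place of 8 h gave 94 lower and 125 higher, and 4 h in place of 2 h gave 105 and 209. A straight line on log2 time called 35 lower and 26 higher, 1 and 0 different from wild type, and 0 different from the IRAK2 knockout. A prior variance with an intensity trend called 309 lower, 72 and 60 different from wild type, and 7 and 1 from the IRAK2 knockout. Without the wild-type arrays the fit called 120 lower and 164 higher and 0 different from the IRAK2 knockout. Without the IRAK2-knockout arrays it called 27 and 18 different from wild type, and with all genes fitted 23 and 18. The cause was not tested. The counts of calls thus depend on the fit, and differences near the floor are lower limits.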

Other observations

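Clock-controlled genes, a list drawn up after Dbp was seen among the rises, moved little as a group. Of 16 measured members, 2 were at least 2-fold higher (3.22% of all measured genes were) and 0 lower. The median was 0.37 (log2) against 0.11 for all measured genes. Usp2, a ubiquitin protease, was 5.50, 6.70 and 7.13 at 2, 4 and 8 h, and Nfil3, a repressor of the same promoter element as Dbp, read 4.06, 3.93 and 4.99 and rose by 0.93 (adjusted p 0.0447 in the limma fit). The clock times at which cells were taken are not given in the sources used here.

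Of the genes that were high in the double knockout at 2 h and low in wild type, Ctse and Chil1 differed in their course. Ctse, the aspartic protease cathepsin E, read 7.65, 7.18 and 6.25 in the double knockout and fell by 1.40, against 3.33 to 3.79 in the stimulated wild-type arrays. Chil1 was 8.18, 7.89 and 7.70, against 3.82 to 4.21 in wild type, and was not called.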
